A study of Mus musculus with 7 samples.

Results

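GATA factors and their complex partners were followed here through 10 genes, which were Gata1, Gata2, Gata3, Zfpm1, Lmo2, Tal1, Ldb1, Lyl1, Gfi1b and Runx1. The genes were chosen by name, with earlier results of these data known. Every probe whose RefSeq accession belongs to one of them was taken. This gave 12 probes of 55681 on the array and 10 genes of 20018 named ones, with 2 probes each for Zfpm1 and Runx1 and 1 probe for each other gene. The arrays measured RNA of dendritic cells grown from common myeloid progenitors of C57BL/6 mice, which are bone marrow cells that give rise to myeloid, red and platelet lineages. The 3 arrays labelled knockout came from Gata2 f/f mice with ER-Cre, a Cre recombinase fused to an oestrogen receptor domain so that tamoxifen turns it on. The 4 control arrays came from Gata2 f/f mice without the Cre. Both groups received tamoxifen on days between 1 and 10, and the CD45.2+ progenitors were sorted on days 20 to 22. The sorted cells were grown with FLT3 ligand at 200 ng/ml on CD45.1+ bone marrow feeder cells of SJL mice. The mice's ages, the promoter that drives the Cre, and how dendritic cells were separated from feeder cells could not be learned from the labels. The labels do not state that replicates came from separate animals or cultures, and every p-value here therefore reflects array-to-array spread alone, which may be technical.

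GATA factors are zinc finger proteins that bind DNA at the letters GATA. In blood cells a GATA factor works in a complex in which Tal1 or its close relative Lyl1 binds a neighbouring E-box, while Lmo2 and Ldb1 hold the proteins together and Ldb1 can join distant sites. GATA2 maintains stem and progenitor cells and acts in mast cells, GATA1 takes its place in the red cell and platelet lineages, and GATA3 directs T cells and innate lymphoid cells.

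Promoter sequences are shown for the 4 genes whose arrays labelled knockout did not overlap the controls, so that the binding letters near their starts can be read. Each window runs from 250 bases before to 50 bases after the start of transcription, on the gene's own strand, and comes from the RefSeq annotation of GRCm38.p6. The searched GATA motif had 4 forms, read on both strands. They were AGATAA, then the same letters with a final G (AGATAG), then the form that begins with T (TGATAA), and last that form with a final G (TGATAG), and capitals mark a match. The lines give Gata1 at chrX:7967861-7968160 on the minus strand, Gata2 at chr6:88193641-88193940 and at chr6:88198414-88198713 on the plus strand, Gata3 at chr2:9878551-9878850 on the minus strand and Gfi1b at chr2:28621933-28622232 on the minus strand.
Gata1: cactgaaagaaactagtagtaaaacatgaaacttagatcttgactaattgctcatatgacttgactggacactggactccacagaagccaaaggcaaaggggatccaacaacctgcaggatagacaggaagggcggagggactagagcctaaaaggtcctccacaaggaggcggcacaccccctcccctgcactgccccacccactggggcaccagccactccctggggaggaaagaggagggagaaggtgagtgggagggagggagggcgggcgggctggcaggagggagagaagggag
Gata2 start 1: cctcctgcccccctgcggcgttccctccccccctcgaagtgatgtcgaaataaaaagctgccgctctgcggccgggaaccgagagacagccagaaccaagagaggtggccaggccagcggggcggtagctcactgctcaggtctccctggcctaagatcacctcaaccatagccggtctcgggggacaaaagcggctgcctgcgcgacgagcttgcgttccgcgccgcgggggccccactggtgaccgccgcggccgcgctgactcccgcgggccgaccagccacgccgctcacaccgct
Gata2 start 2: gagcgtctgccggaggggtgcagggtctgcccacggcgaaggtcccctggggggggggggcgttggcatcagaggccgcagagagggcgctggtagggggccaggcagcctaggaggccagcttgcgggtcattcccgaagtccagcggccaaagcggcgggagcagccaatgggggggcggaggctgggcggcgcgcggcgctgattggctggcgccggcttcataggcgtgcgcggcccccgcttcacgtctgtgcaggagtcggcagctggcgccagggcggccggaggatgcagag
Gata3: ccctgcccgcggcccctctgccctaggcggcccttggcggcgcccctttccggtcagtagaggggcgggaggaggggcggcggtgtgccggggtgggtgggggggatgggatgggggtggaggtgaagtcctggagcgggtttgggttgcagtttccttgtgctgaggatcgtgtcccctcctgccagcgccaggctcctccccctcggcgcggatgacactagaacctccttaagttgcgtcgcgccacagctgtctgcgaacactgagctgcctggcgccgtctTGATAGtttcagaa
Gfi1b: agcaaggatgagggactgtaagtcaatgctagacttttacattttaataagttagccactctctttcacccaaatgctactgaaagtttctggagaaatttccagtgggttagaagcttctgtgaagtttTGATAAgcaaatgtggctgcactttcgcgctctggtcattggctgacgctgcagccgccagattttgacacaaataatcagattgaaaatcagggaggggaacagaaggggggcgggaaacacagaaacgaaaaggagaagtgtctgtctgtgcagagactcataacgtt
A match stood in the Gata3 window, where TGATAG began at base 37 counted from the start, and in the Gfi1b window, where TGATAA began 120 bases before it. The Gata1 window and both Gata2 windows held none of these letters. The table gave 14 windows for 9 of the 10 genes, and 4 windows, those of Gata3, Gfi1b, 1 start of Tal1 and 1 start of Ldb1, held a match. Of all 32851 promoter windows of this length, 29.8% held one. An E-box, searched as CAGNTG, stood in 6 of the 14 windows against 51.4% of all windows. The RUNX letters TGTGGT stood in 1 window, a start of Runx1, against 16.8% of all windows. Both were also read on both strands. No GATA match overlapped another, while the E-box and RUNX letters can share bases.

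All values below are a probe's background-corrected signal divided by the array's 75th percentile, and differences are on the log2 scale of that ratio, knockout-labelled minus control. All 12 probes were tested with limma together with 34130 probes in all, and 11 of them were well above background on all 7 arrays. Gata2 passed the adjusted threshold of 0.05 and was higher in the arrays labelled knockout. None of the 12 probes passed as lower. Of all tested probes, 1.36% passed, with 0.838% higher and 0.522% lower. At an unadjusted p under 0.05 there were 4 of the 12 probes, 3 higher and 1 lower, against 5.64% and 4.93% of all tested probes. The 3 arrays labelled knockout lay entirely above the 4 controls for 3 of the 12 probes and entirely below for 1, where 5.3% and 5.98% of all tested probes did so. Both counts of higher probes include Gata3, which met the filter only through the knockout-labelled arrays. Its control values were not above background, so its place in these counts is no separate support. The members were chosen with earlier results of these data known. Their counts beside the shares of all probes are therefore a description and no test. The plot of member signals by array shows these separations, and the interval plot shows the size of each difference.

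**Figure D1:**
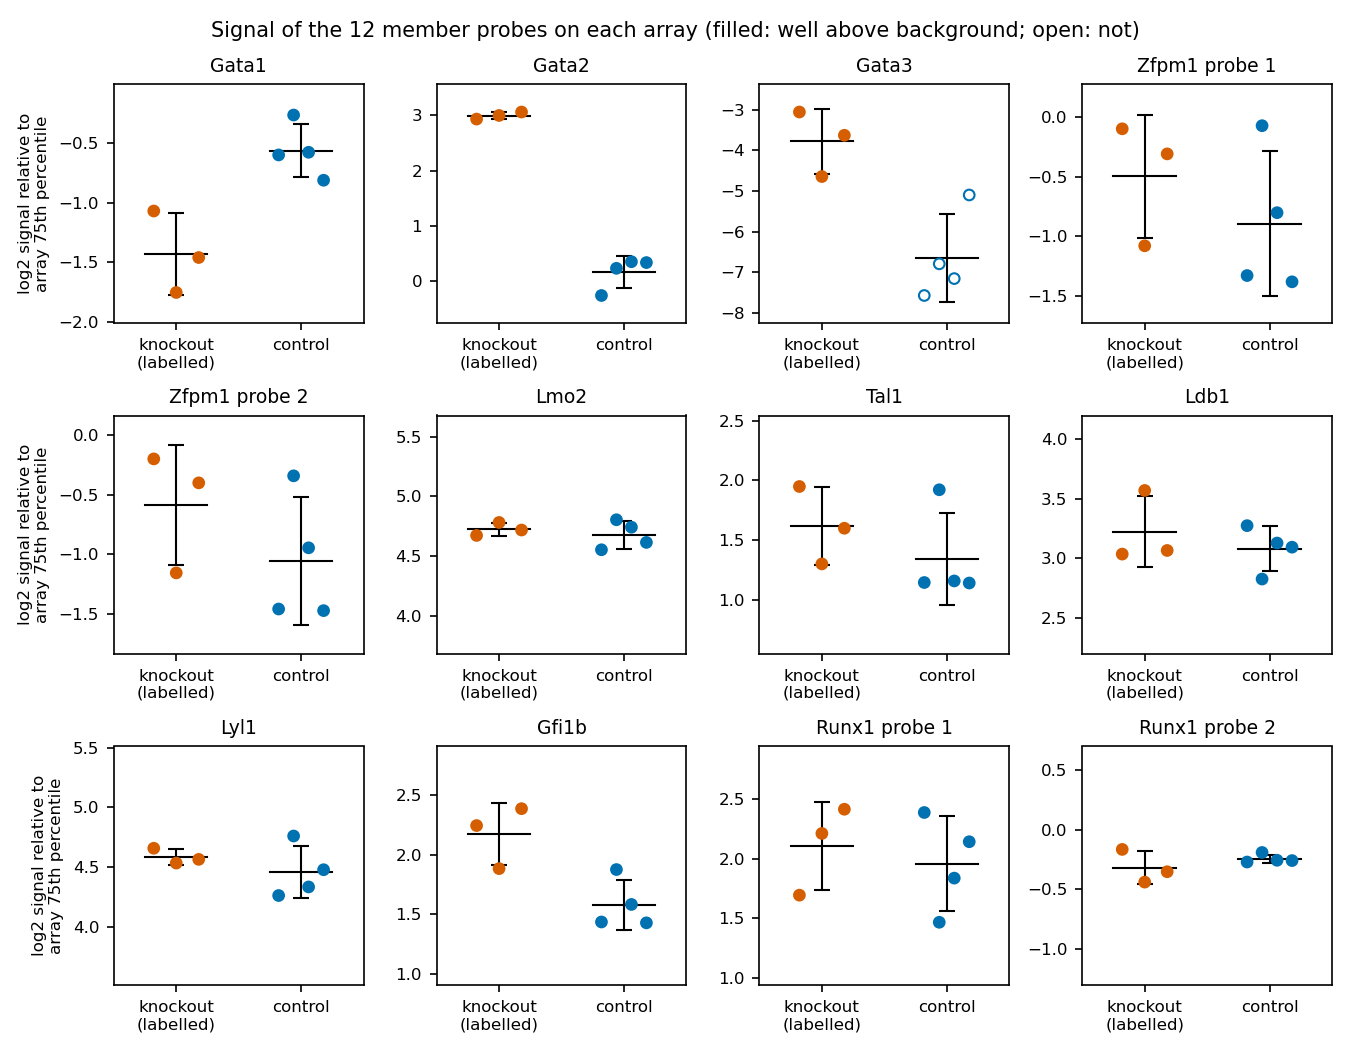
Signal of each of the 12 probes in every array, as log2 of the ratio to the array's 75th percentile, with arrays labelled knockout on the left and control arrays on the right and bars for the group means. The knockout-labelled points lie apart from the controls for Gata1, Gata2, Gata3 and Gfi1b and overlap them for the other probes.

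**Figure D2:**
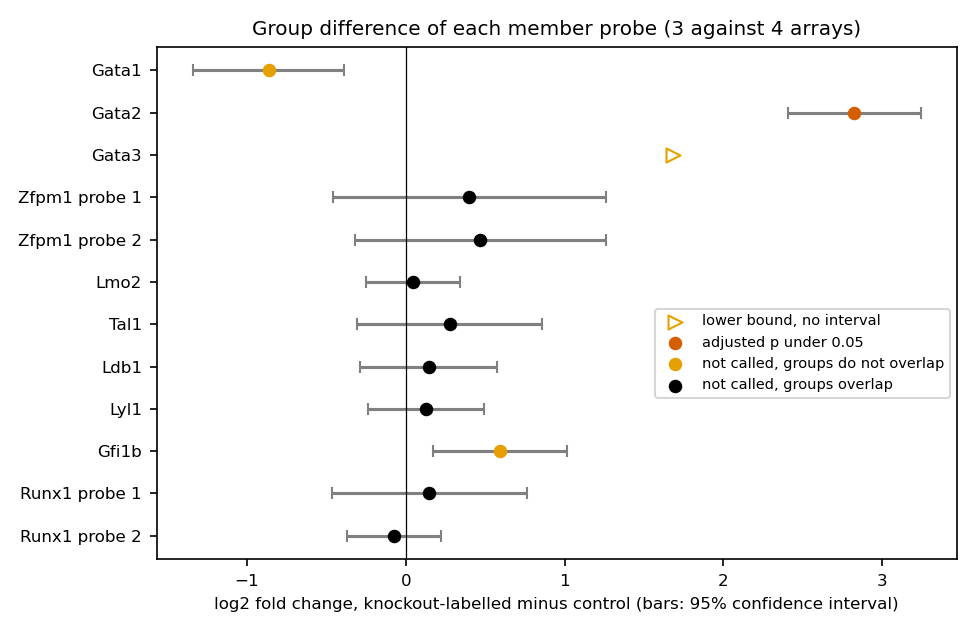
Difference between the groups for each probe on the log2 scale, knockout-labelled minus control, with its 95% confidence interval from limma. Gata2 stands at 2.82, Gata3 is drawn as a triangle at its lower bound of 1.68 with no interval because no control array measured it above background, and Gata1 is the only probe whose interval lies wholly below 0.

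Gata2, the targeted gene and a factor of blood progenitors and mast cells, was brighter in the arrays labelled knockout. Its probe read 7.62, 7.97 and 8.33 times the 75th percentile there, against 0.839, 1.18, 1.28 and 1.27 times in the controls. The 3 knockout-labelled arrays lay close together and far above every control, of which replicate 1 was the dimmest. The difference was 7.08-fold (95% interval 5.31 to 9.46, log2 fold change 2.82, SE 0.18, limma adjusted p = 0.000416), which ranked 31st of 34130 by p. The position of this probe relative to the deleted part of the gene is unknown here, and the probe therefore checks nothing about the labels. The labels also carry an unexplained abbreviation in the source name of the knockout-labelled arrays. Group directions below are those of the arrays as labelled, every one of them would turn if the labels were exchanged, and an exchange was not tested. Since these are bulk samples, more or fewer cells of a type and more or less RNA per cell cannot be told apart.

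Gata1, the GATA factor of red cells, platelets, mast cells and eosinophils, was dimmer in each array labelled knockout than in each control. It read 0.477, 0.297 and 0.364 times the 75th percentile in the arrays labelled knockout, against 0.660, 0.833, 0.671 and 0.570 times in the controls. The nearest pair, knockout-labelled replicate 1 and control replicate 4, stood apart by less than the range within either group. The difference on the log2 scale was -0.86 (SE 0.21, 95% interval -1.34 to -0.39) and did not pass after adjustment (unadjusted p = 0.00322, limma adjusted p = 0.128). It passed in 1 of 20 alternatives, the fit without a filter on background, at an adjusted p of 0.029, and the range over all of them was 0.029 to 0.406.

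Both GATA probes can also be read within an array, where a shared scaling drops out. The Gata2 value minus the Gata1 value on the log2 scale was 4.00, 4.75 and 4.52 in the arrays labelled knockout, against 0.34, 0.50, 0.93 and 1.15 in the controls. The shift between groups was 3.69. The 2 sets of arrays could not overlap, since Gata2 lay wholly above the controls and Gata1 wholly below them. The same subtraction with Gfi1b in place of Gata1 gave a shift of 2.23, and with Lmo2, which hardly differed between groups, 2.78. These differences between 2 probes carry no order of abundance, and only their shift between arrays can be read. Each shift follows from the group differences of its 2 probes and adds no separate result.

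Gata3, the GATA factor of T cells and type 2 innate lymphoid cells, stood clear of background on 3 of 3 arrays labelled knockout and on 0 of 4 controls. Its probe read 0.121, 0.0401 and 0.0810 times the 75th percentile in the arrays labelled knockout, against 0.00525, 0.00902, 0.00701 and 0.0292 times in the controls. In intensity units that was 401, 153 and 299 in the arrays labelled knockout, against 17.4, 28.0, 18.7 and 90.2 in the controls. Every knockout-labelled array lay above every control, with control replicate 4 the nearest. It was at least 3.21-fold higher in the arrays labelled knockout, where a control array counts at its dimmest measurable signal or, if brighter, at the Gata3 value itself. With 1 floor for all arrays the bound was 2.82-fold. The fit without a floor, in which the 4 control values are not measured levels, gave a log2 fold change of 2.88 (SE 0.62, 95% interval 1.45 to 4.31, limma adjusted p = 0.0894), which missed the threshold. That value ran from 1.10 to 3.40 over the alternatives. The lowest, with normexp background correction (adjusted p = 0.133), lies under the log2 bound of 1.68, so the bound holds for the scanner's own background correction only. It passed with no filter (0.0156), array weights (0.0358), 1 probe per gene (0.0473) or without control replicate 4 (0.0185), over a range of 0.0156 to 0.308 in 19 alternatives. Gata3 met the filter only through the knockout-labelled arrays. Negative control spots lay at -8.78 ± 0.41 on the log2 scale in those arrays and at -7.59 ± 0.14 in the controls (SD, n = 3 and 4, exact two-sided permutation p = 0.02857, the lowest value that 35 splits allow), and the part of that in the Gata3 result was not tested.

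Zfpm1 encodes FOG1, the cofactor that binds GATA1 and GATA2 through their zinc finger domain. Its first probe read 0.935, 0.474 and 0.808 times the 75th percentile in the arrays labelled knockout, against 0.398, 0.952, 0.574 and 0.384 times in the controls. Its second probe read 0.870, 0.449 and 0.757 times in the arrays labelled knockout, against 0.364, 0.789, 0.519 and 0.360 times in the controls. The groups overlapped on both probes, and knockout-labelled replicate 2 was the dimmest of its group while control replicate 2 was the brightest of its own. The differences were 0.40 (95% interval -0.46 to 1.26, limma adjusted p = 0.742) and 0.47 (-0.32 to 1.26, adjusted p = 0.679) on the log2 scale. Within an array, the first probe minus the second lay between 0.08 and 0.10 in the arrays labelled knockout and between 0.09 and 0.27 in the controls (difference -0.07, two-sided exact permutation p = 0.1714).

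Tal1, the basic helix-loop-helix factor of the complex, read 3.86, 2.46 and 3.03 times the 75th percentile in the arrays labelled knockout, against 2.21, 3.79, 2.23 and 2.20 times in the controls. Control replicate 2 stood far above the other controls, which were nearly equal, and within the range of the knockout-labelled arrays. The difference on the log2 scale was 0.28 (SE 0.25, 95% interval -0.31 to 0.86, limma adjusted p = 0.739). Lyl1, its relative, read 25.2, 23.1 and 23.7 times in the arrays labelled knockout, against 19.2, 27.1, 20.2 and 22.3 times in the controls. The controls spanned the knockout-labelled range on both sides. The difference was 0.13 (95% interval -0.24 to 0.49, adjusted p = 0.817).

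Lmo2, the bridging LIM-only protein, and Ldb1, the adaptor that binds it and joins distant sites, were next. Lmo2 read 25.5, 27.5 and 26.3 times the 75th percentile in the arrays labelled knockout, against 23.5, 27.9, 26.7 and 24.5 times in the controls. All 7 arrays lay within a narrow band, and the difference of 0.05 on the log2 scale had an interval of -0.25 to 0.34 (limma adjusted p = 0.932). Ldb1 read 8.20, 11.9 and 8.38 times in the arrays labelled knockout, against 9.68, 7.10, 8.75 and 8.54 times in the controls. Knockout-labelled replicate 2 was the highest of all, and the other knockout-labelled arrays lay inside the control range. The difference of 0.14 (95% interval -0.29 to 0.57, adjusted p = 0.826) turned to -0.03 without that array and to -0.00082 with array weights, at adjusted p-values of 0.957 and 0.999.

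Gfi1b, a repressor of the red cell and platelet lineages that works with a histone demethylase complex, was brighter in the arrays labelled knockout. It read 4.74, 3.69 and 5.23 times the 75th percentile there, against 2.71, 3.67, 3.00 and 2.69 times in the controls. The groups did not overlap, though knockout-labelled replicate 2 and control replicate 2 were almost level. The difference was 1.51-fold (95% interval 1.12 to 2.02, log2 fold change 0.59) and did not pass after adjustment (unadjusted p = 0.0123, limma adjusted p = 0.260, with 0.0606 to 0.711 over 20 alternatives).

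Runx1, the core factor of blood stem cell formation and a frequent neighbour of GATA sites, was read by a probe for NM_009821 and one for NM_001111022. The first read 3.23, 4.63 and 5.33 times the 75th percentile in the arrays labelled knockout, against 5.23, 2.76, 3.57 and 4.41 times in the controls. The second read 0.892, 0.738 and 0.784 times in the arrays labelled knockout, against 0.8294, 0.8768, 0.8378 and 0.8364 times in the controls. The first spread widely over both groups and the second lay within a narrow band on all 7 arrays. Their differences had opposite signs, 0.15 (95% interval -0.46 to 0.76, limma adjusted p = 0.882) and -0.07 (-0.37 to 0.22, adjusted p = 0.877), and neither passed. The first probe's sign turned without knockout-labelled replicate 3 (-0.0054) and without control replicate 2 (-0.02). The first minus the second on the same array lay between 1.86 and 2.76 in the arrays labelled knockout and between 1.66 and 2.66 in the controls (difference 0.22, two-sided exact permutation p = 0.5143).

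Single arrays moved across several of these probes, as the plot of deviations from the control mean shows. Control replicate 2 was the highest control for 8 of the 12 probes, where it was so for 31.5% of all tested probes. Knockout-labelled replicate 2 was the lowest of its group for 8 of the 12, against 36.1% of all tested probes. Knockout-labelled replicate 1 was the highest of its group for 7, against 40.5%.

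**Figure D3:**
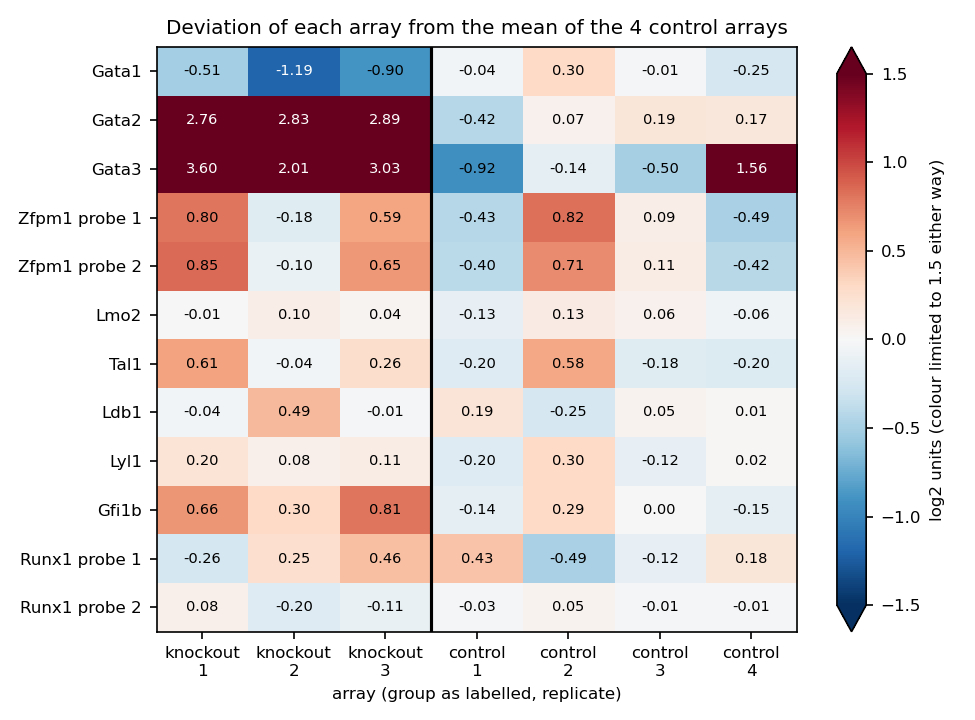
Deviation of each probe in every array from the mean of the 4 control arrays, on the log2 scale, with arrays labelled knockout first and controls after them. Control replicate 2 is the highest control for 8 of the 12 probes and knockout-labelled replicate 2 the lowest of its group for 8.

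The genes whose pattern over the 7 arrays was most like a GATA factor's were found by the root mean square difference of log2 values after each probe's own mean was removed, among 14508 named genes. For Gata2 these were Uaca (0.18), Plb1 (0.223) and Hoxa10 (0.236). Uaca was measured on all 7 arrays, with a log2 fold change of 2.65. Plb1 and Hoxa10 cleared background on 3 arrays each, so their values on the other arrays are not measured levels. For Gata1 they were Guca1a (0.0915), Nrp2 (0.101) and Mefv (0.111), with log2 fold changes of -0.83, -0.93 and -0.70. For Gata3 the nearest were P4ha2 (0.572), Zfp532 (0.649) and Arhgef5 (0.673), which cleared background on 4, 3 and 3 arrays. The likeness to Gata3 rests in part on its 4 control values, none of them above background, and the distances were the longest of the 3 sets. All these genes were picked for likeness over the same 7 arrays, so their fold changes follow from that choice and add no separate result.

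Regulators around the 10 genes showed no call. In 3 lists of other GATA and FOG genes, other complex partners and co-regulators, and stem and progenitor factors, 48 genes were tested with limma, 0 passed the adjusted threshold and 1 had an unadjusted p under 0.05. Of the 48 genes, 44 differed by less than 0.5 on the log2 scale. The share of all named genes that did so was not counted. With 1 probe per named gene, 1.97% of all genes passed, 1.08% higher and 0.893% lower. At that share 48 genes would hold few calls, so the lack of calls does not set these regulators apart. Other GATA and FOG genes had 6 of 8 tested, with a median of -0.21 beside -0.05 for all named genes, and ran down to -0.47 for Gata5 (adjusted p = 0.602) and -0.36 for Gatad1 (0.545). Gata6 did not clear background on any array. Complex partners had 26 of 28 tested, with a median of -0.00, and ran between -0.41 for Lmo4 (0.574), a LIM-only relative of Lmo2, and 0.90 for Rcor1 (SE 0.41, 0.505), a corepressor that binds the histone demethylase of the Gfi1b complex. The stem and progenitor factors had 16 of 17 tested, with a median of -0.18. Nfe2, a platelet and red cell factor, stood at -0.71 (SE 0.16, adjusted p = 0.118) and Erg, an ETS factor of stem cells, at 1.30 (adjusted p = 0.591).

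Genes of the lineages in which GATA factors act were then set beside them, with the spread shown in the plot of list members. Mast cell and basophil genes, a lineage that uses Gata2 and Gata1, had 15 of 20 tested, 7 lower and 0 higher in the arrays labelled knockout (1 higher at an unadjusted p under 0.05), with a median of -2.39, or -2.13 with dim genes at their bounds. Of the 7 called genes, Ms4a2 and Cd200r3 did not clear background on any array labelled knockout and were tested only through the controls. The adjusted p beside an "at least" fold is that of the fit without a floor. With values raised to the floor of each array, chosen after seeing the data, the count was again 7. Prss34, a basophil protease, was 123-fold lower (log2 fold change -6.94, limma adjusted p = 0.000516). Cpa3, the mast cell carboxypeptidase, was 32.5-fold lower (adjusted p = 0.000273). The IgE receptor chain Fcer1a differed by -5.05 on the log2 scale (adjusted p = 0.0224) and cleared background on 2 of 3 arrays labelled knockout. Its partner chain Ms4a2, which no knockout-labelled array measured above background, was lower by a factor of at least 4.38 (adjusted p = 0.000516, and 0.00339 with the floor). The other called genes were Mcpt8, Hdc and Cd200r3. Not called were Slc6a4 (0.65), Mcpt4 (0.24, not above background on any control), Tpsb2 (0.15), Kit (-0.20), Mitf (-0.20) and Srgn (-0.23). Il1rl1 (-1.11) and Gzmb (-2.39) were not called either. Mcpt1, Mcpt2 and Mrgprb2 were not well above background on any array, and Cma1 was so on 1 array. The lower calls therefore do not cover the whole list. The summed signal of this list lay between 54.4 and 58.8 in the arrays labelled knockout and between 70.7 and 88.0 in the controls. Without Srgn, a proteoglycan of many blood cells that gave 72.4% of the sum, it lay between 9.40 and 12.2 in the arrays labelled knockout and between 20.1 and 32.5 in the controls.

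Eosinophil genes, another lineage of Gata1 and Gata2, had 8 of 9 tested, 3 lower and 0 higher (0 higher also at an unadjusted p under 0.05), with a median of -1.17. Ear1, an eosinophil ribonuclease, was at least 8.81-fold lower in the arrays labelled knockout (limma adjusted p = 0.00539, or 0.0109 with the floor). It did not clear background on any of those arrays and was tested only through the controls. Ear2, of the same family, was 8.65-fold lower (adjusted p = 0.00302), and the granule protein Prg3 2.93-fold lower (0.00981). Not called were Prg2 (-1.94), Epx (-0.79), Il5ra (-0.58), Siglecf (-0.47) and Ear6 (-0.04). Prg2 was split within the controls, at -5.38, -5.38, -0.40 and -1.22 on the log2 scale. In the arrays labelled knockout it stood at -5.16, -5.05 and -4.90. Megakaryocyte and platelet genes had 18 of 18 tested, 2 lower and 0 higher (0 higher and 8 lower at an unadjusted p under 0.05), with a median of -0.70. The called genes were Gp1bb, a platelet adhesion receptor chain, at -1.16 (adjusted p = 0.0177), and Itgb3, the platelet integrin beta chain, at -0.97 (0.0279). That count of 2 fell to 0 without any one of the 3 arrays labelled knockout, and to 1 without control replicate 1, 2 or 3.

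Erythroid genes had 11 of 19 tested, with 0 called by limma, 0 at an unadjusted p under 0.05 and a median of 0.04. The largest differences were -0.55 for Epor, the erythropoietin receptor (adjusted p = 0.581), and 0.42 for Rhd, a blood group protein (0.754). Alas2, Epb42 and Rhag, which mark maturing red cells, were not well above background on any array. The summed signal lay between 49.0 and 52.6 in the arrays labelled knockout and between 49.7 and 52.5 in the controls. Tfrc and Urod, which dividing cells of many kinds use, gave 83.1% of it. Without them it lay between 6.96 and 9.94 in the arrays labelled knockout and between 6.56 and 12.5 in the controls.

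Genes of the T and innate lymphoid programme that uses Gata3 had 19 of 24 tested, 5 higher and 1 lower, with a median of 0.17. Rag1 and Rag2, the recombinase of early lymphocytes, stood 3.58 and 2.04 higher on the log2 scale in the arrays labelled knockout (limma adjusted p = 0.0008 and 0.00575). The costimulatory receptor Icos was 5.16-fold higher (adjusted p = 0.0395), Tcf7, an early T cell factor, 3.79-fold (0.00603), and Tox, chosen after its value was seen, 2.79-fold (0.0358). Il4, a cytokine that basophils and mast cells make too, was 2.40-fold lower (0.0397). Bcl11b, Il5, Il13, Themis and Lef1 were not well above background on any array. The T cell receptor chains Cd3e, Cd3d and Cd3g stood at -0.05, 0.01 and 0.72 and were not called. The count of 5 fell to 3 without any one of the arrays labelled knockout or without control replicate 1 or 4, and the call of Il4 was lost without any 1 array other than control replicate 3.

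**Figure D4:**
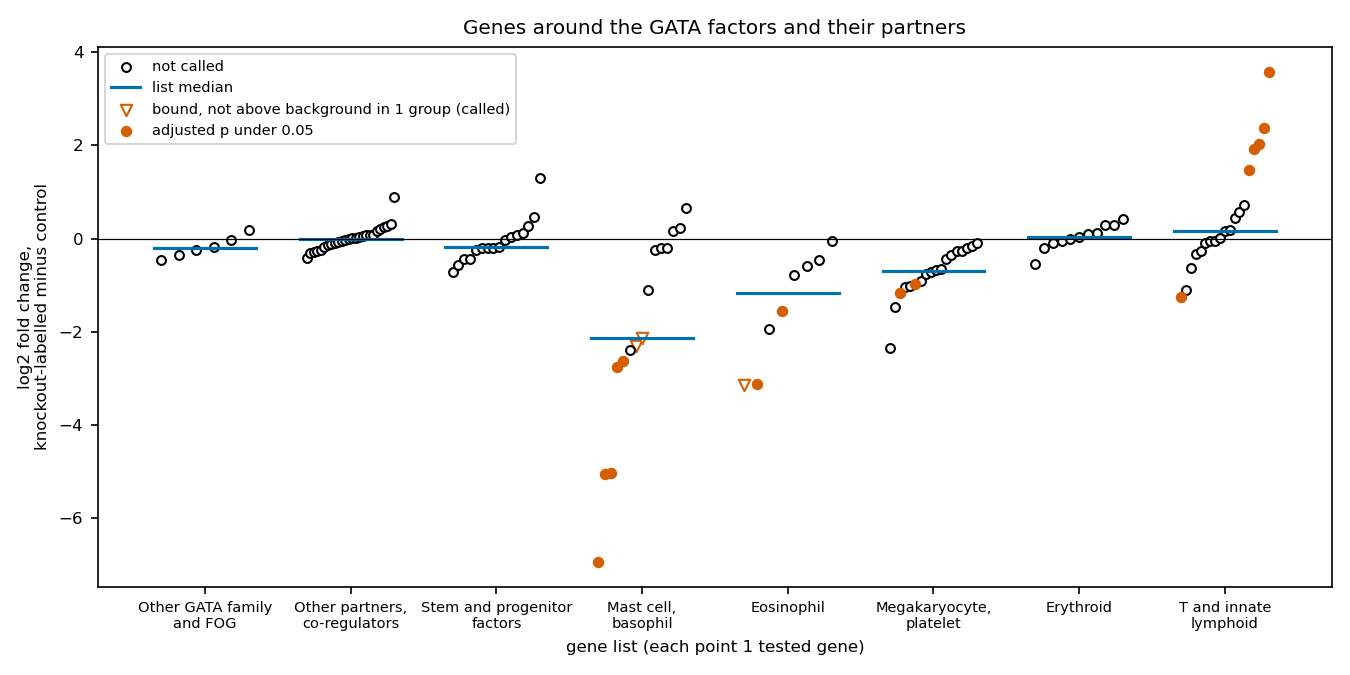
Difference between the groups on the log2 scale, knockout-labelled minus control, for each tested gene of the 8 lists, with medians marked. Triangles mark called genes that did not clear background in 1 group, drawn at their bounds. The mast cell and basophil list and the eosinophil list lie mostly below 0, and the erythroid list lies around 0.

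Markers of the labelled cell type were read as well. Of 19 listed dendritic cell markers, 18 met the filter on background and were tested. All 18 were well above background on all 7 arrays and 0 were called by limma (1 lower at an unadjusted p under 0.05). Xcr1 cleared background on 1 array and was not tested, and Zbtb46 was dim (-3.21 in the arrays labelled knockout and -2.87 in the controls, log2 scale). Their summed signal lay between 445 and 527 in the arrays labelled knockout and between 493 and 577 in the controls. Markers of several other cell types moved with the groups. The summed monocyte and macrophage markers, 6 of 10 called lower, lay between 54.9 and 66.2 in the arrays labelled knockout and between 81.2 and 96.7 in the controls. Neutrophil markers lay between 110 and 156 in the arrays labelled knockout and between 158 and 180 in the controls, with 1 of 10 called lower (Cebpe) and 9 lower at an unadjusted p under 0.05. Csf3r gave 58.9% of that sum. Without Csf3r it lay between 39.2 and 56.2 in the arrays labelled knockout and between 70.9 and 76.2 in the controls. The lower values were not uniform. Camp, S100a8 and S100a9, named after their values were seen, lay within the control range in knockout-labelled replicate 1. They lay below every control in the other arrays labelled knockout. Megakaryocyte and platelet markers lay between 43.1 and 50.3 in the arrays labelled knockout and between 67.1 and 105 in the controls, and eosinophil markers between 0.727 and 0.831 in the arrays labelled knockout and between 1.24 and 1.92 in the controls. Siglecf gave 52.1% of the eosinophil sum. Without Siglecf it lay between 0.204 and 0.238 in the arrays labelled knockout and between 0.568 and 1.23 in the controls. T cell markers lay between 8.53 and 10.1 in the arrays labelled knockout and between 5.33 and 6.32 in the controls, with Lck called higher of 8 tested and Cd247 not well above background on any array. Without Lck, which T cells share with natural killer cells, the sum lay between 4.47 and 6.10 in the arrays labelled knockout and between 3.85 and 5.04 in the controls, and the groups overlapped. Natural killer cell markers lay between 26.5 and 29.9 in the arrays labelled knockout and between 23.3 and 36.1 in the controls, with Nkg7, Gzma and Eomes called higher of 6 tested and Ncr1 not well above background. Klrd1, which gave 73.7% of that sum, went the other way, with a log2 fold change of -0.58 that was not called. Without Klrd1 the sum lay between 11.0 and 13.8 in the arrays labelled knockout and between 3.08 and 3.74 in the controls. The separation of the groups in this list therefore depends on leaving out Klrd1. B cell markers lay between 13.6 and 17.2 in the arrays labelled knockout and between 13.3 and 17.9 in the controls, with 0 of 6 called (1 higher at an unadjusted p under 0.05). Cd79b gave 97.1% of that sum. Without Cd79b it lay between 0.435 and 0.824 in the arrays labelled knockout and between 0.265 and 0.343 in the controls. Stromal markers lay between 1.71 and 3.30 in the arrays labelled knockout and between 1.22 and 1.78 in the controls, with 0 of 4 called (1 higher at an unadjusted p under 0.05), and Col1a1, Cxcl12, Dcn and Lum were not well above background on any array. Pdgfrb gave 92.5% of the stromal sum. Without Pdgfrb it lay between 0.115 and 0.139 in the arrays labelled knockout and between 0.115 and 0.203 in the controls, and the groups overlapped. Cebpe, Lck, Nkg7, Gzma and Eomes are named because they passed, after their values were seen. The part of these cell types in the values of Gata1, Gata2, Gata3 and Gfi1b was not tested.

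The arrays differed in technical level as well. The share of spots that cleared background was 61.5% to 67.4% on the arrays labelled knockout and 54.1% to 56.9% on the controls, and the 75th percentile was 3326 to 3825 intensity units on the arrays labelled knockout and 2671 to 3303 on the controls. Spike-in spots had a median of 1.48 ± 1.48 on the log2 scale in the arrays labelled knockout and 1.08 ± 0.29 in the controls (SD, n = 3 and 4, two-sided exact permutation p = 0.6286). Correlations across probes were 0.982 to 0.990 for arrays of the same group and 0.977 to 0.986 for arrays of different groups. Each group occupied its own row of the slide, so the row, the Cre and the group cannot be told apart.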

How the data were processed

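Cy3-labelled amplified RNA was hybridised to 7 one-colour Agilent arrays, 3 labelled knockout and 4 control. Spot intensity was deposited by the authors as scanner output of Agilent Feature Extraction, version 10.7.3.1 in the file headers. The deposited series table holds log2 values, and scale, centring and direction are not stated in it. Differences between arrays correlated with those of the scanner values at 0.99996 or more in the same direction, with slopes between 0.999991 and 1.00011, and it served as an alternative. Column medians of that table were 0 except for knockout-labelled replicate 3 at -0.02.

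Here the background-corrected signal was divided by the 75th percentile of the array's 59305 non-control spots and put on the log2 scale. Outlier-flagged spots were dropped and repeat spots averaged. Tested probes cleared background (the scanner's well-above-background call) on 3 or more of the 7 arrays. Names came from RefSeq accessions matched to GRCm38.p6, and 26413 of 55681 probes matched. The comparison used limma 3.58.1 (lmFit, eBayes) under R 4.3.3, with Benjamini-Hochberg adjustment over 34130 probes and a threshold of 0.05. A listed gene is read from its tested probe with the highest mean. The fit was tested on simulated data.

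The members and lists were chosen with earlier results of these data known. Named are the 10 genes, up to 4 called genes per direction of each list or else the 2 largest differences, and the 3 nearest patterns of each GATA factor. No pairing by replicate number was visible: deviations of same-numbered arrays correlated at -0.0619, -0.0843 and -0.0227. Those of differently numbered arrays ran from -0.183 to 0.173. These values cannot show whether same-numbered arrays shared a culture or a day. The planned normexp used the median signal, because the files as used here hold no mean signal column. All arrays were on 1 slide and from 1 scan. Alternatives covered background correction, normalization, filter, floors, variance model, weights, probe rule, threshold, leaving out single arrays, and a replicate block. One gene of a list is not reported here.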

Additional observations from a re-analysis of the deposited data

Results flagged for a closer look

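Tal1 in control replicate 2 stood apart from the other 3 controls. It read 3.79 times the array's 75th percentile, against 2.20 to 2.23 times in the others, so that its gap to the nearest was 0.978 of the whole control range, above Dixon's 95% critical value for 4 arrays. Chance gives a gap above that critical value in about 5% of groups, and 12 probes were looked at.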

How the results depend on the processing

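The higher call of Gata2 held in all 20 alternatives, with log2 fold changes between 2.68 and 2.91 and adjusted p-values between 7.24e-05 and 0.0224. The count of member probes called higher was 2 rather than 1 with no filter, array weights, 1 probe per gene or a threshold of 0.1, and 1 to 2 with an array left out. The count called lower was 1 rather than 0 with no filter. Over all probes, 286 were called higher and 178 lower. The higher count was 847 with no filter, 444 with array weights, 134 at a threshold of 0.01 and 154 to 247 with an array left out. The lower count was 300 with normexp, 9267 with no filter, 398 with the floor of each array, 311 with array weights, 292 at a threshold of 0.1, 86 at 0.01 and 97 to 161 with an array left out. With the replicate number as a block, 81 were called higher and 71 lower. The cause of these changes was not tested. Higher calls made up 61.6% of calls, against 48.3% with normexp, 8.38% with no filter, 43.9% with the floor of each array and 51.3% with probes well above background on all 7 arrays. The median over all probes moved by more than 0.1 only with no filter, to -0.14. Ldb1 turned to -0.00082 with array weights and to -0.0298 without knockout-labelled replicate 2, with a range of -0.0298 to 0.237 over the arrays left out. The first Runx1 probe turned to -0.0054 and -0.0154 without knockout-labelled replicate 3 and control replicate 2, in a range up to 0.355. List counts with each array left out, chosen after seeing the data, ran from 5 to 7 for mast cell and basophil genes lower, 0 to 2 for megakaryocyte genes lower, 3 to 5 and 0 to 1 for T and innate lymphoid genes higher and lower, and 2 to 3 for eosinophil genes lower. With the floor of each array these counts were 7, 3, 5, 1 and 3. A slide or scan block was not run, since there was 1 of each. The number of arrays limits the precision, and dim probes such as Gata3 are limited by background.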
